A study of Caenorhabditis elegans with 2 samples.

Results

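Binding of the tagged zinc finger protein SPR-3 was examined at 8 genes of the mitochondrial chaperone system and the mitochondrial unfolded protein response of Caenorhabditis elegans: hsp-60, hsp-6, atfs-1, dve-1, ubl-5, clpp-1, haf-1 and lonp-1. The genes were taken by name from 19973 protein-coding genes of the Ensembl annotation, and all 8 were found there. The data came from chromatin immunoprecipitation with sequencing (ChIP-seq) of whole L4 larvae of mixed sex, aged 49 hours, from cultures synchronised as starved L1 larvae. The worms were of strain OP703, which carries unc-119(tm4063) and the transgene wgIs703, holding spr-3 fused to TY1, EGFP and 3xFLAG together with unc-119(+), and an anti-GFP antibody was used. The gene spr-3 takes its name from the suppression of presenilin mutants. All samples belong to 1 group, with 2 biological replicates, so there was no contrast to test. In whole worms a peak cannot be assigned to a tissue, and the transgene adds a tagged copy of spr-3.

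For each gene, every peak summit in the gene body and the 5 kb on either side was collected from 4 deposited lists on the ce11 assembly: 30000 candidate intervals for each replicate, 30000 for the replicates pooled, and 945 intervals that passed the authors' irreproducible discovery rate (IDR) threshold. The signal of an interval is the authors' value for ChIP against control. Its scaling to depth is unknown, as is the depth itself, so signals were read only within a list, and replicates were compared by rank, where rank 1 is the highest signal. The lowest signal kept in the thresholded set was 138.0, and the lowest in the pooled candidate list was 43.4. A gene without a candidate therefore had none above the bottom of a list of fixed length, which does not show absence of binding.

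Mitochondria import most of their proteins unfolded, and the matrix chaperones mtHsp70 and Hsp60 fold them. When import or folding fails, a signal passes from the mitochondria to the nucleus and raises the transcription of these chaperones and of mitochondrial proteases. In C. elegans, hsp-6 (mtHsp70) and hsp-60 (Hsp60) are the standard reporters of this response, ATFS-1 is the transcription factor that is imported and destroyed in healthy mitochondria and enters the nucleus under stress, and DVE-1 and UBL-5 act with it in the nucleus. CLPP-1 and LONP-1 are matrix proteases, and HAF-1 is a peptide exporter of the ABC transporter family.

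The intervals shown first are the 2 thresholded promoter peaks and the 2 unthresholded promoter candidates that held the word GAGACGCA. The latter, at atfs-1 and clpp-1, were weak (pooled ranks 13828 and 19312). The other thresholded peak, beyond the 3′ end of hsp-6, is not shown and held none of the words marked below within 75 bp of its summit. All are on the plus strand of ce11 with sequence from the RefSeq WBcel235 assembly. The hsp-60 peak is given whole, at chrIII:1619003-1619265 (263 bp). The others are the 151 bp centred on the summit upstream of hsp-6 (chrV:4827059-4827209), atfs-1 (chrV:14193537-14193687) and clpp-1 (chrII:10302861-10303011). Capitals mark matches on either strand to GAGACGCA and its core GACGC, to the word GCGCC, to GAANNTTC (the paired repeat of a heat shock element) and to TGATGCAA.
hsp-60: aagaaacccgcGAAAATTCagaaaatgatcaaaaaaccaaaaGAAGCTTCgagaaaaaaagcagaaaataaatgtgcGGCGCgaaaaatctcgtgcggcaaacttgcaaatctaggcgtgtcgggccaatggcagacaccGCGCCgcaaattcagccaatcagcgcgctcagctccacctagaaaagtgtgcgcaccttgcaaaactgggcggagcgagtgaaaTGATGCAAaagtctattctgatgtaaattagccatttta
hsp-6: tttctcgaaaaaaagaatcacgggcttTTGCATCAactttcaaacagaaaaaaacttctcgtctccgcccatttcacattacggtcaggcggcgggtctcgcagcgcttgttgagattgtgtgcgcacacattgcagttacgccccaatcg
atfs-1: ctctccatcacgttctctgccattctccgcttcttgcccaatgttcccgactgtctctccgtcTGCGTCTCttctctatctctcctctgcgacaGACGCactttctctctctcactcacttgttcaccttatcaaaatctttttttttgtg
clpp-1: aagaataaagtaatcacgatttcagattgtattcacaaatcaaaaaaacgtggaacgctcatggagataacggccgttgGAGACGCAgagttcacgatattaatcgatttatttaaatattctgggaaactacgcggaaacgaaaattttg

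Of the 8 genes, both chaperone genes, hsp-60 and hsp-6, had a thresholded summit in the promoter window, taken as the 1000 bp before the annotated 5′ end and the 200 bp after it. That was 2 of 8 genes, set beside 566 of 19973 protein-coding genes (2.83%). When each summit went only to its nearest 5′ end the count was 0 of 8, because both peaks lie closer to a divergent neighbour, and hsp-6 was outside the 945 highest candidates of each replicate. The other 6 genes, which encode the regulators, proteases and transporter, had none, as most sets of 6 genes would at the all-gene share. A pooled candidate of any rank lay in the promoter window of 7 of 8 genes, beside 32.7% of all protein-coding genes, and haf-1 was the exception. That count was 4 of 8 with a window from 500 bp upstream to 100 bp downstream, and 4 of 8 among the 10000 highest pooled candidates. With a window from 2000 bp upstream to 500 bp downstream it was 8 of 8, haf-1 included. The shares of all genes were not counted under these altered rules, so 2.83% and 32.7% are no measure for them. A thresholded summit lay in the gene body or within 5 kb for the same pair of genes, hsp-60 with 1 and hsp-6 with 2 (12.1% of all protein-coding genes had one). Because the genes were proposed with earlier results on hsp-60 known, these counts carry no test.

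**Figure D1:**
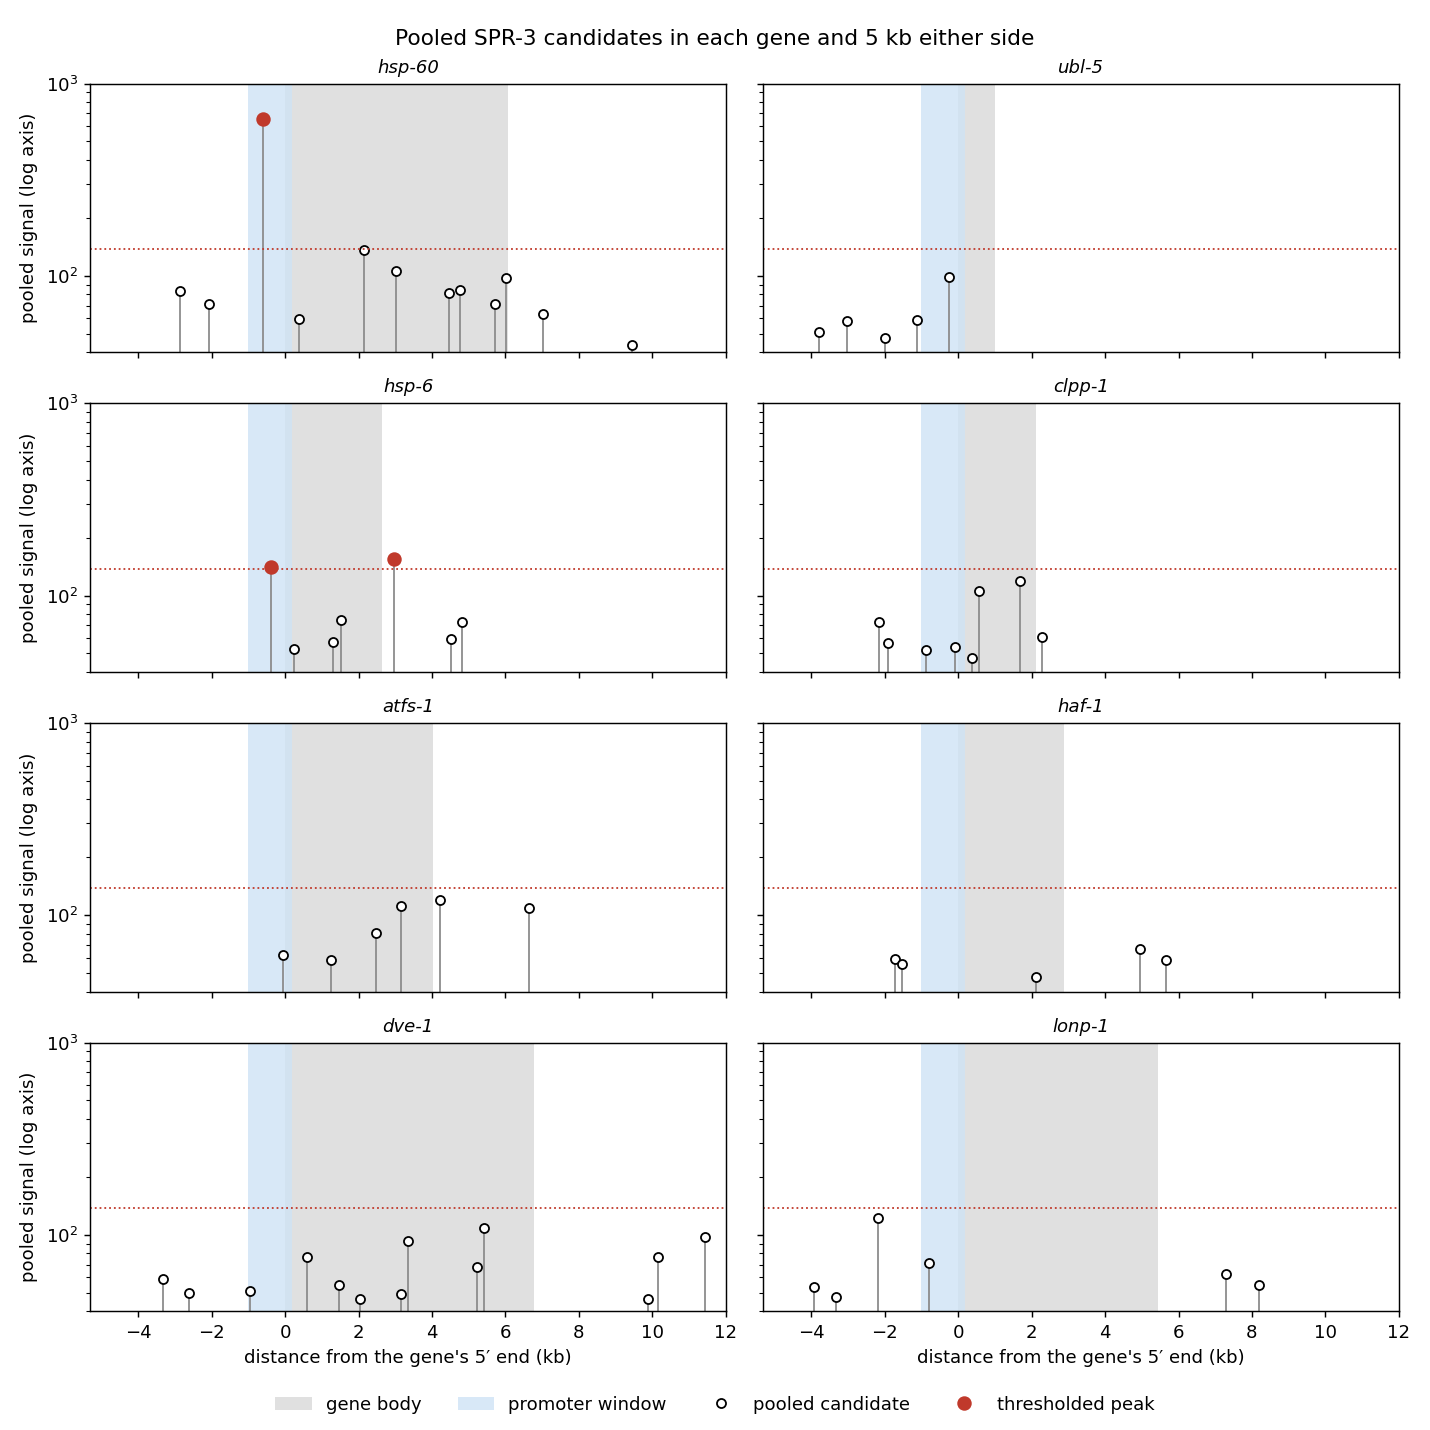
Pooled SPR-3 candidate signal (log axis) against distance from the 5′ end in kb, in the direction of transcription, for each of the 8 genes. Filled points are thresholded peaks, open points other pooled candidates, grey the gene body, blue the promoter window, and the dotted line the lowest thresholded signal (138.0). A single point reaches 658.1, upstream of hsp-60, and the other filled points are at either end of hsp-6.

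The peak at hsp-60, which encodes the mitochondrial chaperonin, was among the strongest of the data set. Its pooled signal was 658.1 at rank 16, and it ranked 17 in replicate 1 (signal 345.7) and 15 in replicate 2 (signal 309.4). Both replicates thus placed it within 2 ranks of each other among 30000 candidates. The 2 replicate summits lay 5 bp apart, against a median of 24 bp (interquartile range 8 to 56 bp) over the 942 thresholded peaks matched in both replicates, of which 19.7% had a gap of 5 bp or less. The interval was 263 bp wide, narrower than the 430 bp that 819 of 945 thresholded intervals shared. Of all protein-coding genes, 14 had a higher promoter-window signal.

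The hsp-60 summit, at position 1619130 of chromosome III, does not belong to hsp-60 alone. It lay 612 bp upstream of the hsp-60 5′ end (gene WBGene00002025, chrIII:1619742-1625803, plus strand) and 201 bp upstream of that of Y22D7AL.10, a gene on the other strand annotated by RefSeq as the 10 kDa mitochondrial heat shock protein. The 2 genes are divergent with 812 bp between their 5′ ends. The nearer start was therefore that of Y22D7AL.10, the co-chaperonin gene, and no value in these lists separates the 2 promoters.

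The hsp-60 gene body carried a run of weaker candidates. There were 12 pooled summits in the 16.1 kb region, or 0.747 per kb, a density higher than that of 96.0% of protein-coding genes (median 0.281 per kb). The highest after the promoter peak lay in an intron 2159 bp downstream of the 5′ end, with a pooled signal of 135.9 at rank 979, just outside the 945 that were kept, and it ranked 1223 in replicate 1 and 1626 in replicate 2. Another intronic summit at 3015 bp had a signal of 106.6 (rank 2111) and ranked 14113 in replicate 1 but 1670 in replicate 2, so that call rested more on replicate 2. Farther 3′, summits stood at 4459 bp (81.5), 4758 bp (84.2), 5724 bp (71.2) and 6004 bp (97.6). The summit at 6004 bp lay in the last part of hsp-60 and 886 bp upstream of the next gene, Y22D7AL.4. The candidate that overlapped it ranked 822 in replicate 2 and 18969 in replicate 1, where its summit was 219 bp away. The remaining 5 summits of the region, at -2849, -2076, 377, 7014 and 9433 bp, had signals of 43.7 to 83.0.

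The hsp-6 gene (WBGene00002010, chrV:4824124-4826760, minus strand), which encodes mitochondrial Hsp70, lay between 2 thresholded peaks, both near the lower edge of the set. The promoter peak (chrV:4826919-4827348) had its summit 374 bp upstream of the 5′ end, with a pooled signal of 141.5 at rank 885, and ranked 966 in replicate 1 (73.8) and 1387 in replicate 2 (67.3). It was therefore within the 945 highest candidates of the pooled list and of neither replicate alone. The replicate summits were 18 bp apart, and 43.8% of the thresholded peaks had a gap of that size or less. Like the hsp-60 peak, it lay in a divergent promoter: the 5′ end of C37H5.5, annotated as a nucleolar complex protein, was 226 bp from the summit on the other side, with 599 bp between the genes. The summit also lay inside 2 annotated noncoding RNA genes on opposite strands, C37H5.15 and C37H5.16.

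The second thresholded peak of the hsp-6 region (chrV:4823577-4824006) lay beyond its 3′ end. Its summit was 2968 bp from the hsp-6 5′ end and 369 bp upstream of adss-1, the next gene on the same strand, which encodes adenylosuccinate synthetase of the AMP synthesis pathway. The pooled signal was 154.4 at rank 720, above that of the hsp-6 promoter peak, with rank 1281 in replicate 1 and rank 497 in replicate 2. By the window rule it is a promoter peak of adss-1, not of hsp-6. The other 5 pooled summits of the region had signals of 52.7 to 74.3. Of these, 3 lay in exons of hsp-6, at 237, 1309 and 1518 bp, and 2 lay in adss-1, at 4512 and 4810 bp.

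Of the regulators, atfs-1 had its weakest candidates near the 5′ end and its strongest at the 3′ end. The gene (WBGene00013878, chrV:14193663-14197700, plus strand) had a promoter candidate with its summit 51 bp upstream of the 5′ end, with a pooled signal of 61.8 at rank 13828. It ranked 6455 in replicate 2 and had no overlapping candidate in replicate 1. The first exonic candidate, at 1250 bp (58.4, rank 16064), was likewise matched in replicate 2 only. Toward the 3′ end, signals were 80.7 at 2465 bp, 112.2 at 3162 bp in an exon (rank 1781) and 119.6 at 4217 bp (rank 1436), the last being 180 bp past the annotated end of the gene. That 3′ candidate ranked 1398 in replicate 1 and 1501 in replicate 2, a closer agreement in rank than at the promoter. Its replicate summits, however, lay 109 bp apart. A further intergenic summit at 6637 bp had a signal of 109.6 (rank 1924). None of the 6 reached the thresholded set.

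The homeobox gene dve-1 (WBGene00022861, chrX:427035-433812, minus strand) had many weak candidates and none that was thresholded. The region of 16.8 kb held 13 pooled summits, or 0.775 per kb, more than in 96.7% of protein-coding genes, with signals of 46.3 to 108.1. The highest lay in an intron 5427 bp into the gene (rank 2008), with rank 3300 in replicate 1 and rank 2103 in replicate 2 and with the replicate summits 10 bp apart. An intronic summit at 3345 bp (92.9, rank 3471) was placed at rank 1976 by replicate 2 and at rank 14066 by replicate 1. The single candidate in the promoter window, 961 bp upstream with a signal of 51.1 (rank 21934), overlapped a candidate of replicate 2 only (rank 6595). Its summit lay inside the noncoding RNA locus annotated as ZK1193.7. Replicate 1 instead had a candidate 101 bp upstream of the 5′ end (rank 13078), which overlapped no pooled interval, so the replicates did not share a promoter site. Of the other 10 summits, 5 lay in the gene body (46.5 to 76.7), 2 lay farther upstream at -2622 and -3320 bp (49.6 and 59.1) and 3 lay 9881 to 11427 bp from the 5′ end (46.3 to 96.9), in the exons of its neighbours.

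The gene ubl-5 (WBGene00006726, minus strand), for a ubiquitin-like protein that pairs with DVE-1, had a promoter candidate below only those of hsp-60 and hsp-6 in pooled signal among the 8 genes. Its summit lay 240 bp upstream, in the 499 bp between ubl-5 and the V-ATPase subunit gene vha-10 on the same strand, with a pooled signal of 99.0 at rank 2751. The replicates differed in rank, 6889 in replicate 1 and 1895 in replicate 2, although their summits lay 20 bp apart. The summit was in the promoter window of ubl-5 alone. The gene body held no summit, and the other 4 summits of the region, with signals of 47.8 to 59.1 between 1118 and 3785 bp upstream, were each matched in 1 replicate only. One of these, at -3035 bp, lay 59 bp from a snoRNA gene.

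At the matrix protease genes no candidate near the 5′ end reached the thresholded set. In lonp-1 (WBGene00016391, minus strand), the ATP-dependent Lon protease, no pooled summit lay in the 5453 bp gene body. Its promoter-window candidate, 785 bp upstream with a signal of 71.3 (rank 9024), stood at rank 5572 in replicate 1 and rank 5650 in replicate 2, with summits 102 bp apart. The upstream gene spcs-1, for a signal peptidase subunit, starts 111 bp downstream of that summit, and only 97 bp separate spcs-1 from lonp-1, so the candidate is closer to spcs-1. The highest signal of the region, 121.8 at rank 1358, lay 2189 bp upstream in an exon of sdha-2, a succinate dehydrogenase gene, and ranked 1168 in replicate 1 and 2587 in replicate 2. The other 4 summits had signals of 47.3 to 62.5.

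The clpp-1 gene (WBGene00014172, chrII:10300714-10302842, minus strand), for the proteolytic subunit of the mitochondrial Clp protease, holds other genes inside it, and its strongest candidates lay beside those. The highest of its 8 summits lay 1682 bp into clpp-1 and 56 bp upstream of mdt-22, a Mediator subunit gene nested in clpp-1 on the other strand, with a signal of 119.4 at rank 1444. It ranked 3387 in replicate 1 and 2079 in replicate 2, and the replicate summits were 10 bp apart. The next, at 574 bp (105.2, rank 2185), lay 38 bp from a tRNA gene in an intron, and a weaker one at 371 bp (47.5) lay 1 bp from another tRNA gene. Both summits farthest upstream, at -1894 bp (56.9) and -2160 bp (72.8), were also within 35 bp of tRNA genes. In all, 4 of the 8 summits of this region were within 200 bp of a tRNA gene, a share not counted over all pooled candidates. The summits at -1894 and -2160 bp were matched to the same candidate of each replicate. The promoter window held a candidate 94 bp upstream (54.2, rank 19312), for which the overlapping candidates of the replicates had summits 335 bp apart, and one 866 bp upstream (52.3, rank 20877), which lay 5 bp downstream of the 5′ end of the V-ATPase gene vha-9. The last summit, at 2288 bp (61.0), lay beyond the 3′ end.

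No candidate of the pooled list or of either replicate lay in the promoter window of haf-1 (WBGene00001811, chrIV:17376427-17379310, plus strand). The nearest pooled summits upstream were at -1516 bp (55.9, rank 17875) and -1721 bp (59.3, rank 15415), inside C30H6.5. The one summit in the gene body, at 2133 bp in an exon, had a signal of 47.4 (rank 25570), close to the floor of the list. The highest signal of the region was 66.3, at 4952 bp, and that summit and the one at 5651 bp (58.8) were each matched in replicate 2 only.

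**Figure D2:**
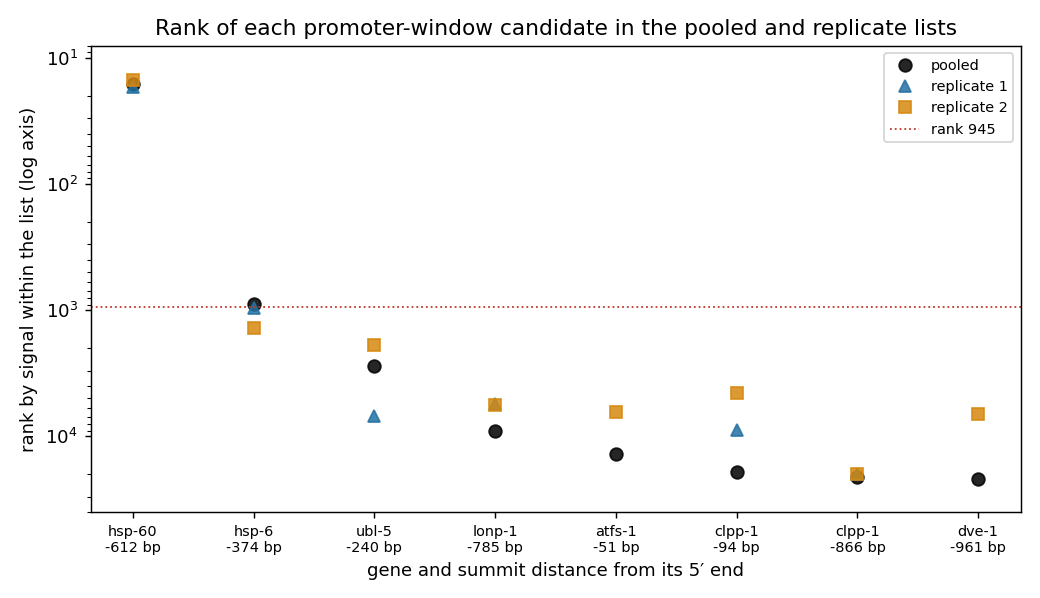
Rank by signal within each list (log axis, high ranks at the top) of the 8 pooled candidates in the promoter windows of 7 genes, with the overlapping candidate of nearest summit in each replicate. The dotted line is rank 945. The hsp-60 candidate stands at ranks 15 to 17 in all 3 lists, the hsp-6 candidate at 885 to 1387, and the rest at 1895 to 21934 (both clpp-1 replicate points at -866 bp coincide), with no replicate 1 point for atfs-1 and dve-1.

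Set beside each other, the promoter candidates of the 7 genes that had one were spread from rank 16 to rank 21934 of 30000. By pooled rank the order was hsp-60 (16), hsp-6 (885), ubl-5 (2751), lonp-1 (9024), atfs-1 (13828), clpp-1 (19312) and dve-1 (21934). The places of hsp-60 and hsp-6 were the same in both replicates. Below them the order was not: ubl-5 (6889) stood below lonp-1 (5572) in replicate 1 and above it in replicate 2. The median signal of the highest promoter candidate was 71.3 over the 7 genes that had one, and 64.8 over the 6529 protein-coding genes that had one. Without hsp-60 and hsp-6, the signals of the other 5 ran from 51.1 to 99.0, on both sides of that all-gene median. Of the 8 promoter candidates, 6 were overlapped by candidates of both replicates, with a median distance of 19 bp between the replicate summits.

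Across the 8 regions there were 62 pooled summits, of which 3 were thresholded. By location, 19 lay in the promoter window of some protein-coding gene, 20 in exons, 17 in introns and 6 between genes, and 24 were inside the body of one of the 8 genes. Only 8 of the 19 lay in the promoter window of one of the 8 genes itself. The number per gene ran from 5 at ubl-5 and haf-1 to 13 at dve-1. The density was between 0.388 and 0.775 per kb, above the median of all protein-coding genes (0.281 per kb) at each of the 8. Both replicates overlapped 45 of the 62 summits, replicate 1 alone 8 and replicate 2 alone 9. In some places neighbouring pooled intervals overlapped the same replicate candidates. Neither this overlap nor the split by location was counted over all pooled candidates.

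The 2 genes with a thresholded promoter peak were also the only 2 of the 8 whose upstream neighbour lies on the opposite strand. The other 6 follow a gene on the same strand, at distances from 97 bp (lonp-1) to 12404 bp (dve-1). Over all protein-coding genes, 3.97% of 9071 with a divergent upstream neighbour had a thresholded summit in the promoter window, and 1.89% of 10897 with a neighbour on the same strand. In a divergent pair a summit between the genes can fall in both windows.

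Short words in the sequence were compared next, on both strands within 75 bp of the summit (windows of 151 bp). The word GAGACGCA, which led earlier word counts over these peaks, was present at 2 of the 8 promoter candidates: its match was centred 9 bp before the summit of atfs-1 and 7 bp after that of clpp-1 (-94 bp), on plus-strand coordinates. It was present at 7.94% of thresholded summits, 2.03% of pooled candidates and 1.85% of windows of that length directly upstream of protein-coding genes. Neither hsp-60 nor hsp-6 held it in the window, while both candidates that did were unthresholded. The promoter window of haf-1, which had no candidate, held the word 283 bp upstream of the 5′ end. Since GAGACGCA and GCGCCAGC both led earlier word counts over these peaks, their higher shares at thresholded summits, and those of their cores, support nothing. GCGCCAGC was at 0 of 8 (4.44% of thresholded summits, 0.463% of pooled candidates and 0.270% of promoters). Its core GCGCC was at 3 of 8, with 2 matches at hsp-60, centred 48 bp before and 15 bp after the summit, and 1 each at dve-1 and ubl-5. That core was present at 30.1% of thresholded summits, 12.2% of pooled candidates and 6.74% of promoters. GACGC was at 4 of 8 (32.2%, 15.0% and 9.42%). The median GC content of the windows also differed, at 47.0% for thresholded summits, 41.7% for pooled candidates and 33.1% for promoters. Whether the word shares follow GC content was not tested.

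The heat shock element word GAANNTTC was at 0 of the 8 summits within 75 bp (5.93% of thresholded summits, 9.22% of pooled candidates, 9.44% of promoters). Over the whole hsp-60 interval there were 2 matches, centred 113 and 82 bp before the summit, and the hsp-6 promoter interval held 1, centred 76 bp before its summit on the plus strand. The promoter intervals of ubl-5 and clpp-1 (-94 bp) also held 1 each, centred 155 bp before and 123 bp after their summits, so the word was in 4 of the 8 promoter intervals. Among intervals of any width, 18.1% of the thresholded and 25.0% of the pooled ones held the word. A match to CCAAT, a word chosen after the sequence had been seen, was centred on the hsp-60 summit itself, and windows of 151 bp held that word at 22.5% of thresholded summits and 30.2% of pooled candidates.

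The word TGATGCAA was chosen after the hsp-60 and hsp-6 sequences had been seen, because both held it, so its presence there is a description only. In mammals, a word of this kind is known as the composite element bound by ATF4 with C/EBP family factors. The hsp-60 interval held 1 match, centred 100 bp after the summit, and the hsp-6 promoter interval held 3, centred 188, 146 and 45 bp before the summit on the plus strand. The atfs-1 promoter interval, which is not thresholded, also held 1, centred 199 bp after the summit. It was found in 1.90% of thresholded intervals and 2.18% of pooled intervals, so it was no more frequent among the thresholded ones. In the promoter windows it was present in 4 of the 8 genes: hsp-6 with 4 matches, and hsp-60, atfs-1 and lonp-1 with 1 each, beside 5.13% of all protein-coding promoter windows. The choice of the word fixed its presence at hsp-60 and hsp-6, so atfs-1 and lonp-1, 2 of the other 6 genes, are the ones that choice did not set. At atfs-1 the match lay 148 bp downstream of the 5′ end and at lonp-1 235 bp upstream. No binding by any bZIP factor was measured here.

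A wider list of 51 genes for mitochondrial quality control was compared in the same way. It was drawn up with earlier results of these data known, and 49 names were found in the annotation. Of these, 5 (10.2%) had a thresholded promoter summit and 30 (61.2%) a pooled candidate, beside the 2.83% and 32.7% of all protein-coding genes. The count of 5 includes Y22D7AL.10, which shares the hsp-60 peak. One listed gene, trap-1, encodes a translocon-associated protein of the endoplasmic reticulum and not a mitochondrial chaperone, and had no thresholded peak.

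Apart from Y22D7AL.10, the thresholded peaks of the wider list belonged to 2 import genes and 2 chromatin regulators. That assignment depended on the window: with each summit given only to its nearest 5′ end the count for the wider list was 1 in place of 5, namely Y22D7AL.10, and with a window from 500 bp upstream to 100 bp downstream it was 3, without cbp-1 and jmjd-1.2. The share of all protein-coding genes was not counted under either rule. Among 16 import genes there were 2: ddp-1, the worm Tim8 small translocase subunit, whose peak lay 172 bp upstream with a signal of 433.4 (rank 58, with rank 57 in replicate 1 and 65 in replicate 2), and tomm-20, an outer membrane receptor, at 313 bp upstream with a signal of 191.6 (rank 431). The ddp-1 peak was also in the promoter window of ttc-7. Among 12 response regulators there were 2: cbp-1, the p300/CBP acetyltransferase, at 884 bp upstream with a signal of 601.9 (rank 21, with ranks 20 and 25 in replicates 1 and 2), and jmjd-1.2, a histone demethylase, at 501 bp upstream with a signal of 186.6 (rank 453), shared with mrps-21 and F29B9.11. None of 6 proteases and scaffold genes, 6 genes of dynamics and mitophagy and 5 antioxidant and detoxification genes had one. With 2.83% of all protein-coding genes having one, groups this small would mostly have none. A pooled candidate lay in the promoter window of 66.7%, 83.3% and 40% of these groups, in that order, beside 32.7% of all protein-coding genes. The highest candidates below the threshold were at mtx-1 (112.6), the stress transcription factor gene skn-1 (111.1), the prohibitin gene phb-2 (96.3), the protease gene ymel-1 (94.7) and the inner-membrane fusion GTPase gene eat-3 (91.9).

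**Figure D3:**
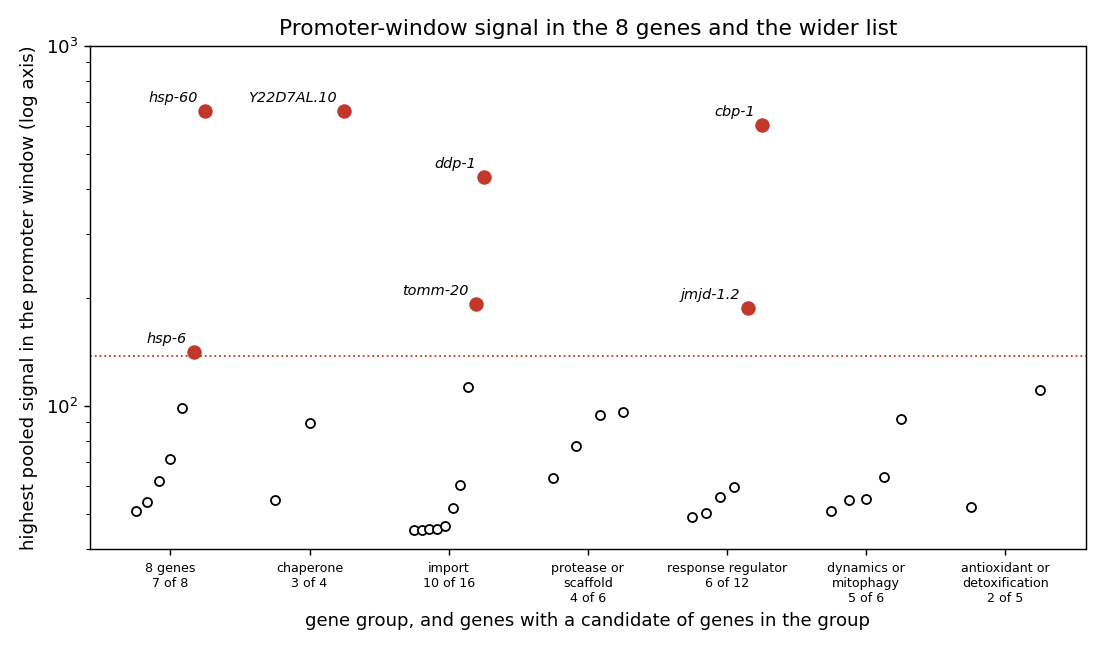
Highest pooled signal in the promoter window (log axis) for the 8 genes and for the groups of the wider list; under each group stand the genes with a candidate out of the genes in the group. Filled points are thresholded, and the dotted line is the lowest thresholded signal (138.0). The hsp-60 and Y22D7AL.10 points are the same peak, and 4 further filled points belong to ddp-1, tomm-20, cbp-1 and jmjd-1.2.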

How the data were processed

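ChIP-seq of GFP-tagged SPR-3 was deposited as 4 narrowPeak lists on ce11, per the deposited notes: candidates of each replicate, candidates of the pool, and an optimal IDR-thresholded set made from all 3, each taken against the same control file. The signal column is the authors' value for ChIP against control, and the −log10 q-value was deposited beside it. The sources used here name no peak caller, version, IDR cutoff or depth. The summit is the interval start plus the last column. All thresholded intervals were found in the pooled list.

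Genes came from Ensembl release 115 (WBcel235) and sequence from the RefSeq assembly of the same build; all intervals lay within its chromosomes. Summits were assigned to genes, promoter windows and words with Python 3.11.15, pandas 2.3.3 and numpy 2.4.6, after a test on simulated data. Replicate values are those of the overlapping candidate with the nearest summit; a candidate can match more than 1 pooled interval. The 8 genes, the wider list and the words were chosen with earlier results of these data known. All 8 genes, the genes sharing their promoter summits, the thresholded genes of the wider list and its 5 highest others are named. No test between groups was possible, so the main promoter and region counts stand beside those over all protein-coding genes. The replicates are biological replicates per the labels.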

Additional observations from a re-analysis of the deposited data

How the results depend on the processing

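The count of 2 of 8 genes with a thresholded promoter peak depended on how a peak was given to a gene. It was 1 with a window from 500 bp upstream to 100 bp downstream, which leaves out the hsp-60 summit at -612 bp, 1 among the stronger 472 of the thresholded intervals (hsp-60) and 0 when each summit went only to the nearest 5′ end. From the 945 highest candidates of a single replicate it was 1 without replicate 1 and 1 without replicate 2, since the hsp-6 peak ranked 1387 and 966. With any overlap of the interval, any transcript start, RefSeq gene starts (added after the data were seen), the window of 2000 to 500 bp, or summits near small RNA genes left out, it was 2. Genes with a thresholded summit in the gene body alone numbered 0, and within 5 kb 1 to 2 when a replicate was left out. Genes with a pooled promoter candidate numbered 8 with the window of 2000 to 500 bp and 6 without replicate 2. They numbered 4 with the narrower window and 4 among the 10000 highest candidates. Pooled summits numbered 24 in gene bodies and 28 among those 10000. For the wider list the thresholded count was 3 with the narrower window and 1 by nearest 5′ end, and the pooled count 18 and, among the 10000 highest, 12. Shares of all protein-coding genes were not counted under these altered settings, so the altered counts have no background to stand beside. Ranked by q-value, the hsp-60 peak was one of 630 intervals tied at the highest value, a mean rank of 315.5. The shorter cores GACGC and GCGCC were at 4 and 3 promoter candidates, and GAANNTTC at 3 within 150 bp. No paired analysis was possible because there is 1 group. Depth is unknown, so neither the floor of the lists nor the weak candidates can be given a counting error.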

Other observations

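Some candidates of single replicates in these regions overlapped no pooled interval, and dve-1 had such candidates in both replicates. The highest was in replicate 1, in an exon 3574 bp into hsp-60, with a signal of 56.4 at rank 2500 of that list. In replicate 2 the highest was in an exon of a neighbour of dve-1, 10660 bp from the dve-1 5′ end, at rank 11926. Such candidates were not used in any count above.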
